A study of Mus musculus with 96 samples.

Results

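The genes described here encode the 4 ID proteins (Id1, Id2, Id3 and Id4) and 4 feedback genes of bone morphogenetic protein (BMP) and transforming growth factor beta (TGF-beta) signaling (Smad6, Smad7, Skil and Bambi) in the mouse. They were picked by name, as known direct targets of these pathways that restrain myogenesis, and make up 8 of the 54150 rows of the gene table. The table covers 96 RNA-seq libraries in 35 conditions of C2C12, a mouse muscle cell line, grown without pyruvate. Proliferating C2C12 cells are myoblasts, and after confluence and a switch to low serum they leave the cell cycle and fuse into myotubes.

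All myoblasts carried a stable lentiviral transgene driven by a doxycycline-inducible promoter and received 300 ng/ml doxycycline 24 hr before treatment. The control line expressed luciferase. The other lines expressed LbNOX, a bacterial water-forming NADH oxidase that works in the cytosol, mitoLbNOX, the same enzyme sent to the mitochondrial matrix, or NDI1, a yeast NADH dehydrogenase that piericidin does not inhibit. Day 1 cells, which had spent 24 hr in low serum, carried no transgene, and myotubes, which had spent 4 days in it, were untransduced or had received adenovirus for GFP, or for LbNOX together with GFP. Myoblasts differed from the other states in transgene, doxycycline and serum at once, so the effect of cell state and these factors cannot be told apart.

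Cells were treated for 10 hr with DMSO as vehicle, piericidin (0.5 µM, complex I), antimycin (0.5 µM, complex III) or oligomycin (1 µM, ATP synthase). Untransduced myotubes also received the uncoupler BAM15 (0.5 µM) or 5% oxygen, alone or with oligomycin, or oligomycin with piericidin. Per the study's methods, cells under 5% oxygen were moved there the evening before and kept there through the treatment, so these groups also differ from the others in length of exposure. Chloramphenicol (20 µg/ml), which blocks mitochondrial translation, was given to control and LbNOX myoblasts for 48 hr, with DMSO for 48 hr as its own control. The paper gives uridine as present for the chloramphenicol RNA-seq and absent for the respiratory inhibitors, and fewer cells were seeded for chloramphenicol. Each condition had 3 libraries, except that NDI1 myoblasts, all 48 hr conditions and GFP myotubes had 2. The labels do not say that replicates came from separate cultures grown at different times, so p-values measure the spread between these libraries, which may be technical.

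ID proteins are helix-loop-helix proteins without a DNA-binding region. They pair with E proteins, the partners that MyoD and other basic helix-loop-helix factors need, and so keep those factors off DNA. BMP receptors act through SMAD1, SMAD5 and SMAD8, which turn on the Id genes, and TGF-beta and activin receptors act through SMAD2 and SMAD3. Both arms induce their own brakes: SMAD6 and SMAD7 are inhibitory SMADs that block receptors and bring in ubiquitin ligases, SKIL (SnoN) is a nuclear corepressor bound to SMADs, and BAMBI is a decoy receptor without a kinase. In muscle precursors BMP signaling and ID proteins are known for holding back differentiation.

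Promoter sequence around the start that RefSeq annotates was at hand for 4 of the 8 genes, Id2, Id3, Id4 and Smad6 (GRCm38.p6, from 250 bases before to 50 bases after each start). It is shown because these genes are defined as SMAD targets, and a few short motifs were searched for on both strands. For Id2 and Id3 the RefSeq start lies inside the gene span given below, which comes from another annotation, GENCODE M21. The stretches shown for Id2 and Id3 therefore lie within these genes, and their positions count from the RefSeq start. Capitals mark the GC-rich SMAD motif GGCGCC in Id2 and Id4, 2 overlapping copies of the GC box GGGCGG in Id3 and the paired SMAD box GTCTAGAC in Smad6. The stretches are given 5′ to 3′ on the strand of the gene, and positions are counted from the start site as 1, with no 0.
Id2, chr12:25096254-25096342, minus strand: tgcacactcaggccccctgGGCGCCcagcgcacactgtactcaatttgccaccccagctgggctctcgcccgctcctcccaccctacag
Id3, chr4:136143717-136143746, plus strand: ggcggtgcccaGGGCGGGCGGgggtggacc
Id4, chr13:48260957-48260986, plus strand: tcgggttgcccGGCGCCccgccctcgccac
Smad6, chr9:64022045-64022074, minus strand: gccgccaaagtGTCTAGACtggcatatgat

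The paired SMAD box was found in the Smad6 promoter, across its start from position -4 to 4, and in 0.213% of all 32851 promoters in the table. The letters GGCGCC were found in Id2 (-231 to -226) and Id4 (-148 to -143) and in 11.9% of all promoters. The GC box was in all 4 promoters (in Id4 once directly beside the GGCGCC) and in 35.7% of all promoters, and CCAAT in Id2, Id4 and Smad6 and in 37.4%. TGATGCAAT, a site of the amino acid response factor ATF4, and TGACGTCA, the cAMP response element, were found in none of the 4 windows and in 0.192% and 1.79% of all promoters. These matches describe letters in a short window and not binding.

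Library totals ranged from 6458295 to 15366745 counts with a median of 10336588.5, and the expected transgene was seen in every transduced library (at least 372 counts) and in 0 libraries where it did not belong, a check that cannot tell LbNOX from mitoLbNOX libraries because both carry the LbNOX row. The labels of cell state fit the markers: the 9 myotube markers (Myh1, Myh3, Myh8, Ckm, Acta1, Tnnt3, Mymk, Myog and Mybph) summed to 10.9 to 91.8 CPM (counts scaled to a common library size) in myoblast libraries, 12075 to 13047 at day 1 and 12494 to 17495 in myotubes. The 6 proliferation markers (Mki67, Top2a, Ccna2, Cdk1, Ccnb1 and Pcna) summed to 889 to 1642 CPM in myoblasts, 220.4 to 318 at day 1 and 53.7 to 216 in myotubes. The osteoblast markers, of interest because BMP can turn C2C12 toward bone, summed to 8.77 to 44.8 CPM, nearly all of it Runx2, while Alpl, Bglap and Ibsp stayed at or near 0. The adipocyte markers summed to at most 2.26 CPM.

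On GRCm38, Id1 (ENSMUSG00000042745) lies at chr2:152736251-152737410 on the plus strand, Id2 (ENSMUSG00000020644) at chr12:25093799-25097140 on the minus strand and Id3 (ENSMUSG00000007872) at chr4:136143497-136145755 on the plus strand. Id4 (ENSMUSG00000021379) lies at chr13:48261228-48266026 on the plus strand, and Smad6 (ENSMUSG00000036867) at chr9:63953076-64022059 on the minus strand. Smad7 (ENSMUSG00000025880, chr18:75367529-75395935), Skil (ENSMUSG00000027660, chr3:31095058-31122577) and Bambi (ENSMUSG00000024232, chr18:3507923-3516404) are all on the plus strand. All 8 are protein-coding genes, and the values below sum the reads assigned to their annotated transcripts. The exons of Id4 overlap 2 antisense genes, A330033J07Rik and Gm49291, by 171 bases, and the counting did not use strand, so reads there cannot be assigned to one of them with certainty. The annotation also holds a processed pseudogene of Bambi elsewhere, which makes the low Bambi counts less certain.

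Id1, Id2, Id3, Smad7, Skil and Bambi gave counts in all 96 libraries, and the genes differed widely in abundance. Per kilobase of exon in control myoblasts under DMSO, Id3 was the most abundant at 268 CPM per kilobase, followed by Id1 (105), Id2 (43.1), Skil (7.49), Smad7 (4.46), Bambi (0.372) and Smad6 (0.278). Id4 summed to 31 counts over all 96 libraries, with at most 4 in one library, and was never tested. Smad6 summed to 812 counts and reached 16 counts in 13 libraries, and Bambi summed to 1620 counts and reached 16 in 40. Id1, Id2, Id3, Smad7 and Skil passed the filter on low counts in all 6 fits, Bambi in 3 fits and Smad6 in 1, so most of what follows is about the first 5. In bulk RNA, fewer cells of a type and less RNA per cell cannot be told apart.

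Ranked over the 35 conditions by mean CPM, Id1, Id2 and Id3 were highest in myoblasts under DMSO for 48 hr and lowest in day 1 cells or myotubes. Smad7 and Skil were highest in control myoblasts given antimycin, piericidin or oligomycin, in that order. Of 34 pairs of neighbors in that order, the libraries of the pair overlapped for 24 pairs in Id1, 25 in Id2, 21 in Id3, 30 in Smad7 and 32 in Skil. For Id4 and Bambi all 34 pairs overlapped, and for Smad6 33, the exception being GFP myotubes (0.862 to 0.876 CPM) above untransduced myotubes (0.759 to 0.828 CPM), both under DMSO. Distant ranks can differ, as Bambi was at 2.94 to 3.58 CPM in mitoLbNOX myoblasts under DMSO and 0.195 to 0.754 CPM in GFP myotubes under DMSO.

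In control myoblasts all 3 respiratory inhibitors lowered Id1, Id2 and Id3 and raised Smad7 and Skil, while the scarce feedback genes Smad6 and Bambi did not pass the test with any of the 3. Of the 7 members tested, 2 were called higher and 3 lower with piericidin, antimycin and oligomycin alike (edgeR quasi-likelihood test, adjusted p under 0.05). These counts have to be read against a broad response. Of the 11981 genes tested, 61.7% were called with piericidin (30.9% higher, 30.8% lower), 63.2% with antimycin (32.1% and 31.1%) and 50.8% with oligomycin (24.5% and 26.3%).

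Id1, the founding member of the family, stood at 123, 122 and 120.3 CPM in the 3 DMSO libraries of control myoblasts. It was at 51.6, 49.8 and 54.2 CPM with piericidin, 63.7, 74.9 and 73.4 with antimycin and 71.6, 71.2 and 74.9 with oligomycin. Every treated library lay below every DMSO library, and piericidin libraries lay below the other treated ones. Id1 fell by 1.22 with piericidin, 0.76 with antimycin and 0.75 with oligomycin on the log2 scale, each with an SE of 0.06 (adjusted p = 1.49e-16, 6.27e-12 and 1.18e-11).

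Id2, which binds E proteins like Id1 and is known for roles in the cell cycle, had the deepest loss with piericidin and antimycin. Its DMSO libraries stood at 106, 96.5 and 113 CPM. With piericidin they were at 29.7, 31.2 and 28.0 CPM, with antimycin at 40.7, 35.7 and 39.4, and with oligomycin at 27.3, 33.4 and 30.9. Mean levels were thus 28.2%, 36.7% and 29.0% of DMSO, and no treated library overlapped a DMSO library. The log2 fold changes were -1.81, -1.41 and -1.79 (SE 0.09 each, adjusted p = 2.54e-17, 5.1e-15 and 4.89e-17).

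Id3, the most abundant of the family here, stood at 483, 472 and 482 CPM under DMSO. Piericidin libraries held 148, 169 and 155 CPM, antimycin libraries 228, 244 and 242, and oligomycin libraries 136, 149 and 133. The groups did not overlap with DMSO, and antimycin left Id3 higher than either other inhibitor did. Id3 fell by 1.59 with piericidin, 0.98 with antimycin and 1.78 with oligomycin on the log2 scale (SE 0.04 each, adjusted p = 1.4e-23, 1.6e-18 and 1.6e-24).

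The inhibitory SMAD Smad7 moved the other way. It stood at 20.3, 18.6 and 21.6 CPM under DMSO, at 37.8, 42.3 and 33.8 with piericidin, at 53.9, 46.5 and 57.3 with antimycin and at 37.1, 31.9 and 42.4 with oligomycin. All treated libraries were above all DMSO libraries, and the antimycin libraries were above those of the other inhibitors. Smad7 rose by 0.93, 1.41 and 0.88 on the log2 scale with piericidin, antimycin and oligomycin (SE 0.11 each, adjusted p = 1.05e-08, 1.03e-12 and 4.54e-08).

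Skil, the SMAD corepressor, rose less, from 75.5, 70.8 and 71.4 CPM under DMSO. Antimycin brought it to 132, 130.3 and 129.9 CPM, or 0.88 on the log2 scale (adjusted p = 1.25e-10). Piericidin libraries held 88.6, 90.1 and 93.2 CPM (log2 fold change 0.34, adjusted p = 0.000768) and oligomycin libraries 92.9, 88.1 and 88.1 (log2 fold change 0.30, adjusted p = 0.00261). The step with antimycin was well apart from the other treatments, which overlapped each other.

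For the scarce members Smad6 and Bambi no call was made with the 3 inhibitors in control myoblasts, although for Bambi this depended on the setting. Smad6 had 17, 11 and 4 counts under DMSO and 1, 4 and 3 with piericidin, a log2 fold change of -1.56 with a 95% interval from -3.15 to 0.04 (adjusted p = 0.0846). Bambi had 13, 33 and 24 counts under DMSO and 13, 5 and 13 with piericidin (log2 fold change -0.73, interval -1.49 to 0.02, adjusted p = 0.0862). The Smad6 interval holds changes as large as those of Id1, Id2 and Id3, and the Bambi interval holds one as large as that of Id1 but not those of Id2 and Id3. A letter-and-number code in the labels, read here as a plate position, placed 3 of 3 control DMSO libraries, 1 of 3 piericidin, 0 of 3 antimycin and 1 of 3 oligomycin libraries at an outer position, and with outer position as a covariate Bambi was called lower with piericidin (log2 fold change -1.07, adjusted p = 0.0124) and with oligomycin (-0.84, adjusted p = 0.0445, against -0.55 without the covariate). Without replicate 1 Bambi was also called lower with piericidin (-1.21, adjusted p = 0.0177).

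**Figure D1:**
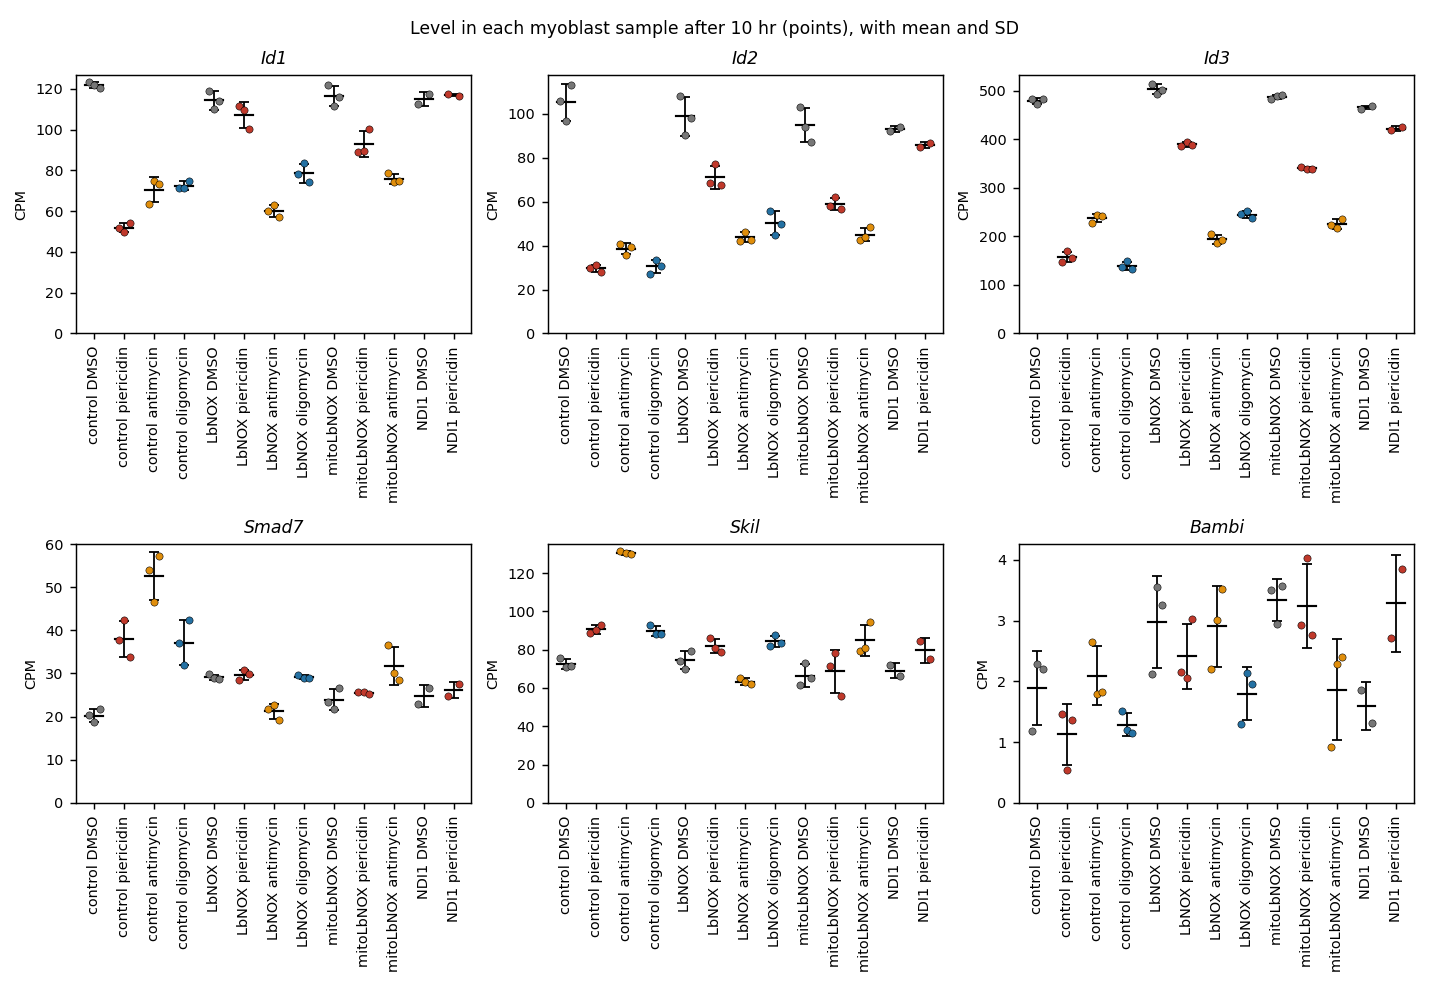
Levels of 6 genes in the 37 myoblast libraries treated for 10 hr. Each panel plots CPM (linear axis from 0) for each library as a point in 13 conditions, grouped by line, with a bar at the mean. The Id genes drop in every inhibitor group of control myoblasts, and Smad7 and Skil peak with antimycin in control myoblasts. In NDI1 myoblasts the Id genes stand close together with and without piericidin (Id3 at 464 and 468 against 418 and 426 CPM). Bambi is higher there with piericidin (2.71 and 3.85 CPM) than with DMSO (1.31 and 1.87).

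Markers of cell state also moved in these comparisons. The proliferation marker sum was 1541 to 1574 CPM under DMSO, 1209 to 1272 with piericidin, 889 to 934 with antimycin and 1188 to 1229 with oligomycin, with 5, 6 and 5 of 6 markers called lower. The myotube marker sum was 17.1 to 22.8 CPM under DMSO, 26.5 to 32.7 with piericidin, 82.6 to 91.8 with antimycin and 22.7 to 30.7 with oligomycin, highest where Smad7 and Skil were highest, and it was 59.6 to 64.3 CPM in mitoLbNOX myoblasts with antimycin. The part of these shifts in the values of the members was not tested.

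Inhibitors were compared directly in the same fit, which asks whether the site of the block matters. Antimycin against piericidin gave 5 members called higher and 0 lower, where 37.2% of all genes were called and 19.3% were higher. The log2 differences were 0.46 for Id1, 0.40 for Id2, 0.61 for Id3, 0.48 for Smad7 and 0.54 for Skil, with adjusted p from 1.27e-12 to 0.000709. Antimycin therefore had the smaller effect on Id genes and the larger effect on Smad7 and Skil.

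Antimycin against oligomycin called 4 members higher, where 50% of all genes were called and 26.1% were higher: Id2 (0.37), Id3 (0.80), Smad7 (0.54) and Skil (0.57). The Id2 call did not hold without replicate 1 (0.24, adjusted p = 0.086). For Id1 the difference was -0.01 with an interval from -0.13 to 0.12. Piericidin against oligomycin called Id1 lower (-0.47, SE 0.06) and Id3 higher (0.19, SE 0.04), where 39.2% of all genes were called. The Id3 call was lost when only these groups were fitted (adjusted p = 0.0518). The intervals were -0.21 to 0.16 for Id2, -0.16 to 0.27 for Smad7 and -0.14 to 0.20 for Skil. The inhibitors differ in target, and oligomycin also in dose.

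The rest of the pathway was followed with lists of genes by role, whose counts stand beside the 61.7%, 63.2% and 50.8% of all genes called with piericidin, antimycin and oligomycin. Among the ligands (15 listed, 7 tested), 2 were higher and 3 lower with piericidin, 2 and 3 with antimycin, and 1 and 2 with oligomycin. Inhba, the activin A subunit, rose by 2.71 with piericidin, 4.55 with antimycin and 0.68 with oligomycin on the log2 scale, and Tgfb2 rose by 0.68 and 2.41 with the first 2. Bmp4, a ligand of the arm that induces Id genes, fell by 2.15 with piericidin and 2.00 with antimycin, and Tgfb3 fell by 1.45, 0.77 and 1.27. The TGF-beta ligands Tgfb2 and Tgfb3 thus moved in opposite directions.

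Receptors (16 listed, 12 tested) had 1 higher and 3 lower with piericidin, 2 and 2 with antimycin and 1 and 3 with oligomycin. Bmpr2, the type II BMP receptor, fell by 0.68, 0.70 and 0.39, and Bmpr1a fell by 0.56 with piericidin and 0.41 with oligomycin. Signaling SMADs (6 tested) had 2, 1 and 1 genes lower and 0, 1 and 0 higher. Smad5 fell by 0.29 with piericidin and Smad1 rose by 0.75 with antimycin. The receptor counts, 4 of 12 with each inhibitor, were below those shares, and the ligand counts (5, 5 and 3 of 7) were near them.

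Secreted antagonists (13 listed, 9 tested) had 3 higher and 2 lower with piericidin, 5 and 1 with antimycin and 2 and 1 with oligomycin. Grem1, which traps BMP ligands, rose by 0.80, 1.93 and 0.33, and Fst, which traps activin, rose by 1.56 with antimycin. Of 11 intracellular brakes other than the members, 5, 8 and 5 were higher and 2 lower each time, with medians of 0.34, 0.52 and 0.18 against medians over all genes of -0.0037, -0.0048 and -0.015. The ubiquitin ligases Nedd4l (1.16, 2.08 and 0.83) and Smurf1 (1.06, 1.49 and 0.89) and the corepressor Tgif1 (0.98, 1.41 and 0.90) rose beside Smad7 and Skil, each most with antimycin, whereas the corepressor Ski fell by 0.50, 0.23 and 0.28.

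Of the other direct targets (16 listed, 14 tested), 2, 4 and 2 were higher and 6, 7 and 6 lower with piericidin, antimycin and oligomycin, beside the 61.7%, 63.2% and 50.8% of all genes called. Their median log2 fold changes were -0.39, -0.38 and -0.20. Ctgf, a known TGF-beta target, rose with each inhibitor (1.77, 3.80 and 0.86). Atoh8, a BMP target, fell by 2.75, 3.46 and 2.17, and Klf10 fell by 1.57, 1.34 and 0.95. Among the partners of ID proteins and the myogenic factors (10 listed, 7 tested), 2, 4 and 1 were higher and 4, 2 and 4 lower. Myf5 rose by 2.39, 3.62 and 0.53, the E protein gene Tcf3 fell by 0.86, 0.56 and 0.67, Hes6 fell by 1.58, 1.29 and 1.48, and Myod1 fell by 0.85 with oligomycin. Of the 9 osteoblast genes 4 were tested, with 0, 1 and 0 higher and 3, 2 and 1 lower, and Spp1, which encodes osteopontin, fell by 1.08, 0.82 and 0.78.

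Transgenes that reoxidize NADH or bypass complex I were then compared with luciferase to ask how much of the response depended on NADH. Under DMSO alone, LbNOX myoblasts had 1 member called, where 2.68% of all genes were: Smad7 was at 29.8, 28.9 and 28.6 CPM, above the control line (log2 difference 0.53, SE 0.11, adjusted p = 0.00288). That call was lost without replicate 1 (adjusted p = 0.154) and without replicate 2 (adjusted p = 0.102). In mitoLbNOX and NDI1 myoblasts 0 members were called against 1.77% and 4.61% of all genes, with 2 and 1 members at an unadjusted p under 0.05.

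In NDI1 myoblasts the Id genes stood close to their DMSO levels with piericidin. Id1 was at 113 and 118 CPM with DMSO and 118 and 117 with piericidin, Id2 at 91.9 and 94.0 against 84.8 and 86.8, and Id3 at 464 and 468 against 418 and 426. The DMSO and piericidin libraries of Id2 and Id3 did not overlap, with log2 fold changes of -0.11 (interval -0.31 to 0.10) and -0.13 (interval -0.24 to -0.03). With piericidin 0 members were called by edgeR (0 by DESeq2, 3 at an unadjusted p under 0.05), where 0.00835% of all genes were. The difference in response between NDI1 and control myoblasts was called for 5 members, where 42.7% of genes were called. It was 1.25 for Id1, 1.70 for Id2, 1.45 for Id3, -0.84 for Smad7 and 1.78 for Bambi. Without replicate 2 the Bambi call did not hold (0.80). In NDI1 myoblasts Bambi was at 1.31 and 1.87 CPM with DMSO and 2.71 and 3.85 with piericidin (17 to 40 counts). Its difference in response thus includes a higher level with piericidin within the NDI1 line.

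LbNOX in the cytosol left smaller Id responses to piericidin. Id1 stood at 119, 109.9 and 114 CPM with DMSO and 112, 109.9 and 100.1 with piericidin, which overlapped (log2 fold change -0.09, interval -0.21 to 0.04). Id2 went from 108, 90.2 and 98.2 to 68.7, 77.1 and 67.6 CPM, and Id3 from 514, 494 and 502 to 386, 396 and 388. Both of these fell (by 0.47 and 0.36), the only members called of 7, where 8.87% of all genes were called and 3.86% were lower. Smad7 stayed at 28.5, 30.7 and 29.9 CPM (log2 fold change 0.03, interval -0.18 to 0.25).

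The response to piericidin in LbNOX myoblasts minus that in control myoblasts was 1.13 for Id1, 1.34 for Id2, 1.23 for Id3 and -0.90 for Smad7 (adjusted p from 1.56e-16 to 1.31e-05), where 44.3% of all genes were called. Smad6 was also called (2.51, SE 0.98, adjusted p = 0.0375), on counts of 17, 10 and 7 with DMSO and 25, 10 and 18 with piericidin in LbNOX myoblasts, and that call was lost without any one replicate (adjusted p = 0.274, 0.0692 and 0.0722 without replicates 1, 2 and 3). For Skil the difference was -0.20 (interval -0.43 to 0.04).

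With mitoLbNOX the pattern was alike, with Id1 at 89.2, 89.3 and 100.3 CPM with piericidin against 122, 112 and 116 with DMSO. Id2 was at 58.2, 62.0 and 56.4 against 103, 94.2 and 87.3, and Id3 at 343, 338 and 339 against 482, 489 and 491. All 3 fell (by 0.32, 0.69 and 0.52), where 11.2% of all genes were called and 4.82% were lower, although Id1 was lost without replicate 1 (adjusted p = 0.061). In these libraries the proliferation markers summed to 1251 to 1274 CPM, against 1443 to 1530 with DMSO. The myotube markers summed to 28.8 to 36.45 CPM, against 14.3 to 19.9, and the part of either list was not tested. The differences from the response of control myoblasts were 0.89, 1.12 and 1.07 for the Id genes and -0.83 for Smad7, where 42.8% of genes were called. Skil was called at -0.29 (adjusted p = 0.0460), a call lost without any one replicate (adjusted p = 0.0614, 0.141 and 0.527 without replicates 1, 2 and 3, the last at -0.10) and with the replicate number as a block.

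Antimycin gave another picture. In LbNOX myoblasts Id1 fell to 59.9, 63.2 and 57.3 CPM, Id2 to 42.3, 46.4 and 42.6 and Id3 to 204, 186 and 192, log2 fold changes of -0.91, -1.16 and -1.36. The difference from control myoblasts was -0.16 for Id1 (interval -0.33 to 0.02), 0.25 for Id2 (interval 0.01 to 0.49, adjusted p = 0.0785) and -0.38 for Id3 (adjusted p = 3.24e-06), so Id3 fell further with LbNOX than without. Id1, Id2 and Id3 fell with antimycin in both lines.

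Smad7 and Skil did not rise with antimycin in LbNOX myoblasts. Smad7 in LbNOX myoblasts with antimycin was at 21.6, 22.6 and 19.3 CPM, below its DMSO level (log2 fold change -0.45, SE 0.11, adjusted p = 0.00114), and Skil was at 65.2, 62.9 and 62.0 against 74.2, 70.1 and 79.3 (log2 fold change -0.22, adjusted p = 0.0311). The Skil call was lost without replicate 1 (adjusted p = 0.0772) and without replicate 3 (adjusted p = 0.0794). In all, 5 members were called lower and 0 higher, where 46.1% of all genes were called and 22.9% were lower. The responses of Smad7 and Skil differed from those of control myoblasts by -1.86 (SE 0.15, adjusted p = 1.47e-11) and -1.10 (SE 0.12, adjusted p = 3.61e-09), where 51.5% of genes were called and 26.8% had a lower response. The proliferation markers summed to 891 to 949 CPM in these libraries and 889 to 934 in control myoblasts with antimycin, and the myotube markers to 32.6 to 39.0 CPM and 82.6 to 91.8 CPM. In LbNOX myoblasts with DMSO the proliferation markers summed to 1528 to 1538 CPM and the myotube markers to 15.4 to 22.8. The osteoblast markers summed to 17.3 to 20.5 CPM with LbNOX and antimycin, 34.8 to 36.2 with LbNOX and DMSO and 38.0 to 42.3 in control myoblasts with antimycin. The part of these marker lists in the Smad7 and Skil values was not tested.

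In mitoLbNOX myoblasts antimycin lowered Id1 (-0.60), Id2 (-1.06) and Id3 (-1.09) and raised Smad7 (0.42) and Skil (0.37), with 4 lower and 2 higher of 7 where 47.7% of all genes were called. Bambi was also lower (-0.80, adjusted p = 0.0457), but not without any one replicate (adjusted p = 0.300, 0.0687 and 0.108; -0.49 without replicate 1), and Smad7 did not pass without replicate 1 (0.26, adjusted p = 0.21). Smad6, the remaining member, was at -0.96 (adjusted p = 0.248) but passed without replicate 2 (-2.41, adjusted p = 0.0470). The difference from control myoblasts was -0.99 for Smad7, -0.51 for Skil and 0.35 for Id2, where 31.7% of genes were called, and the calls were lost for Skil without replicate 2 (-0.37, adjusted p = 0.0679) and for Id2 without replicate 3 (0.23, adjusted p = 0.357). Its values for Smad7 lay between those of LbNOX and control myoblasts, at 36.7, 30.1 and 28.4 CPM.

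Oligomycin lowered Id1 (-0.53), Id2 (-0.96) and Id3 (-1.03) in LbNOX myoblasts, where 35.2% of all genes were called and 17.7% were lower. The proliferation markers summed to 1173 to 1249 CPM in these libraries, against 1528 to 1538 with DMSO, and their part in the values was not tested. Smad7 was at 29.6, 28.8 and 28.9 CPM, against 29.8, 28.9 and 28.6 with DMSO (log2 fold change 0.01, interval -0.20 to 0.23), and Skil did not pass the test (0.19, adjusted p = 0.0716) except without replicate 3 (0.25, adjusted p = 0.0288). Bambi was called lower only with outer position as a covariate (-0.90, adjusted p = 0.0261, against -0.73, adjusted p = 0.0971). The responses differed from those of control myoblasts by 0.82 for Id2, 0.76 for Id3 and -0.86 for Smad7, where 7.98% of genes were called, and by 0.22 for Id1 (adjusted p = 0.124). For Smad7 the response to each of the 3 inhibitors was lower with LbNOX, from a DMSO level that was already higher (29.1 against 20.2 CPM on average). The mean levels under treatment were 29.7 CPM with LbNOX against 38.0 in control myoblasts with piericidin and 29.1 against 37.1 with oligomycin. For Id1 and Id2 the difference was called with piericidin and not with antimycin, although Id2 with antimycin passed without replicate 1 (0.37, adjusted p = 0.0445).

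**Figure D2:**
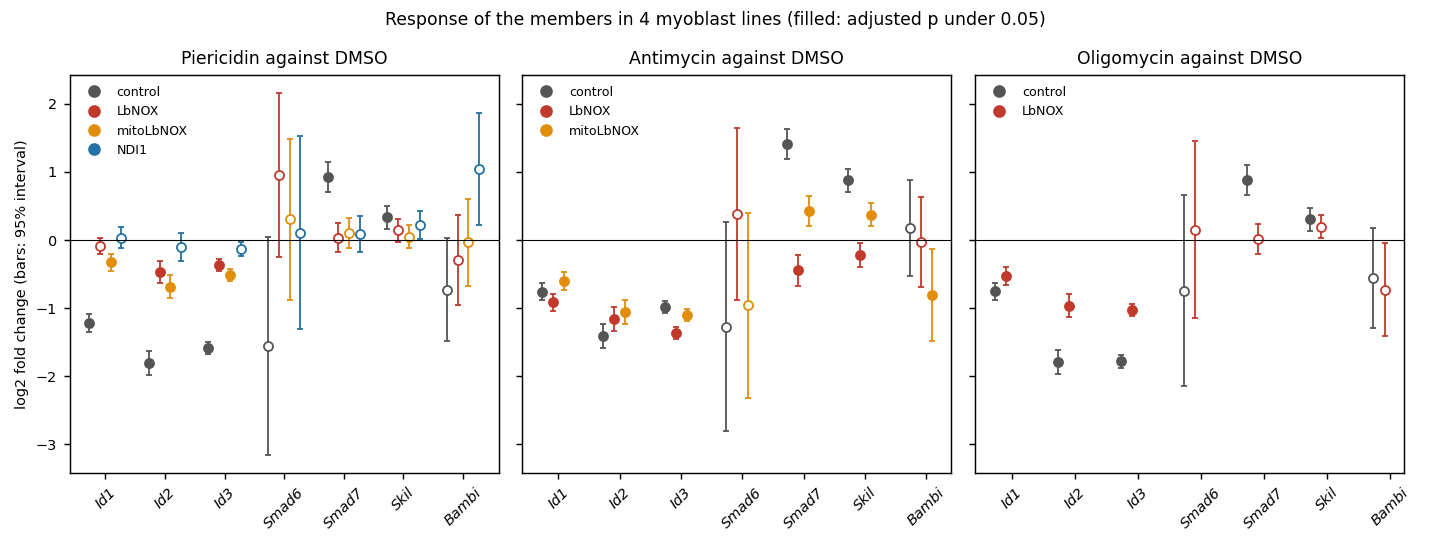
Log2 fold change against DMSO of the same line for each tested gene, with a panel for each inhibitor (horizontal axis: gene, color: line). Bars are 95% intervals from the fit, and points are filled where the adjusted p was under 0.05. With antimycin the Id genes sit below 0 in control, LbNOX and mitoLbNOX myoblasts, while Smad7 runs from 1.41 in control myoblasts through 0.42 with mitoLbNOX to -0.45 with LbNOX.

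Chloramphenicol for 48 hr, a slower route to respiratory deficiency, lowered 2 of 6 members tested in control myoblasts, where 8.45% of all genes were called and 3.62% were lower. Id3 went from 615 and 612 CPM to 422 and 444 (log2 fold change -0.49, SE 0.04, adjusted p = 0.00016) and Id2 from 107 and 113 to 80.8 and 84.3 (-0.40, SE 0.06, adjusted p = 0.00571). The Id2 call was lost without the first chloramphenicol library (adjusted p = 0.0514) and without DMSO replicate 2 (adjusted p = 0.0534). Id1 was at 133 and 141 against 121 and 130.2 (-0.11, interval -0.31 to 0.09). Smad7 was at 17.6 and 16.3 against 19.2 and 24.8 CPM, which did not pass the test (0.39, interval 0.07 to 0.72, adjusted p = 0.140).

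In LbNOX myoblasts chloramphenicol lowered Id3, from 607 and 629 to 464 and 472 CPM (-0.40, adjusted p = 0.00258, but 0.0515 without chloramphenicol replicate 1), where 0.931% of all genes were called. The difference between the lines was called for 0 of 6 members by edgeR (1 at an unadjusted p under 0.05), where 0.53% of genes were called, and its interval for Id3 was -0.04 to 0.22. Beside these values, 3 of 6 proliferation markers were lower with chloramphenicol in control myoblasts and 0 of 6 in LbNOX myoblasts. Chloramphenicol had its own vehicle control, time, seeding and, per the paper, uridine. Its values are therefore not compared here with the 10 hr treatments, outside the descriptions over all 35 conditions.

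The step from control myoblasts to day 1 cells went with larger differences in Id1, Id2, Id3 and Smad7 than any inhibitor did in control myoblasts. Skil differed less between states than with antimycin. Id1 went from 123, 122 and 120.3 CPM in control myoblasts to 26.6, 26.5 and 27.9 at day 1, and stood at 24.8, 24.3 and 24.1 in myotubes. Id3 went from 483, 472 and 482 to 65.0, 68.9 and 69.3 and then to 35.8, 29.3 and 22.3. The states did not overlap in either gene, and the step from myoblast to day 1 was larger than the later one.

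From myoblasts to day 1 cells, Id1, Id2, Id3, Smad7 and Skil were called lower, where 63.6% of all genes were called and 32.3% were lower. Bambi was called lower too, but it passed the filter on low counts only through antimycin-treated control myoblasts (at least 16 counts in each library), and it is not counted with the others. The log2 differences were -2.21 for Id1, -2.69 for Id2, -2.86 for Id3, -2.18 for Smad7, -0.49 for Skil and -0.97 for Bambi (SE 0.07, 0.12, 0.09, 0.18, 0.10 and 0.42). The Bambi call (adjusted p = 0.0442) was lost without any one replicate (adjusted p = 0.152, 0.0862 and 0.223 without replicates 1, 2 and 3) and without the filter (adjusted p = 0.315). Smad7 libraries held 3.29, 5.89 and 4.45 CPM at day 1 and Skil libraries 59.4, 43.8 and 56.0. Smad7, which inhibitors raised in myoblasts, thus stood with the Id genes across states.

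From day 1 to myotubes the genes parted, with 1 member higher and 1 lower of 6, where 35.6% of all genes were called. Id2 rose from 16.7, 14.1 and 19.4 to 27.8, 28.1 and 27.05 CPM (log2 difference 0.76, SE 0.12, adjusted p = 1.04e-05), while Id3 fell by 1.18 (SE 0.10, adjusted p = 8.6e-11). Smad7 did not pass the test (0.48, interval 0.08 to 0.89, adjusted p = 0.0573) but did with the replicate number as a block (adjusted p = 0.048) and without replicate 2 (0.76, adjusted p = 0.0194), and Id1 differed by -0.10 (interval -0.26 to 0.06). Between myotubes and myoblasts 5 members were lower, where 69.4% of all genes were called and 33.7% were lower. Id3 was at 6.08% of its myoblast level, Id1 at 20.0%, Id2 at 26.3%, Smad7 at 30.6% and Skil at 81.4%, the last of which was lost without replicate 1 (log2 difference -0.19, adjusted p = 0.195).

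**Figure D3:**
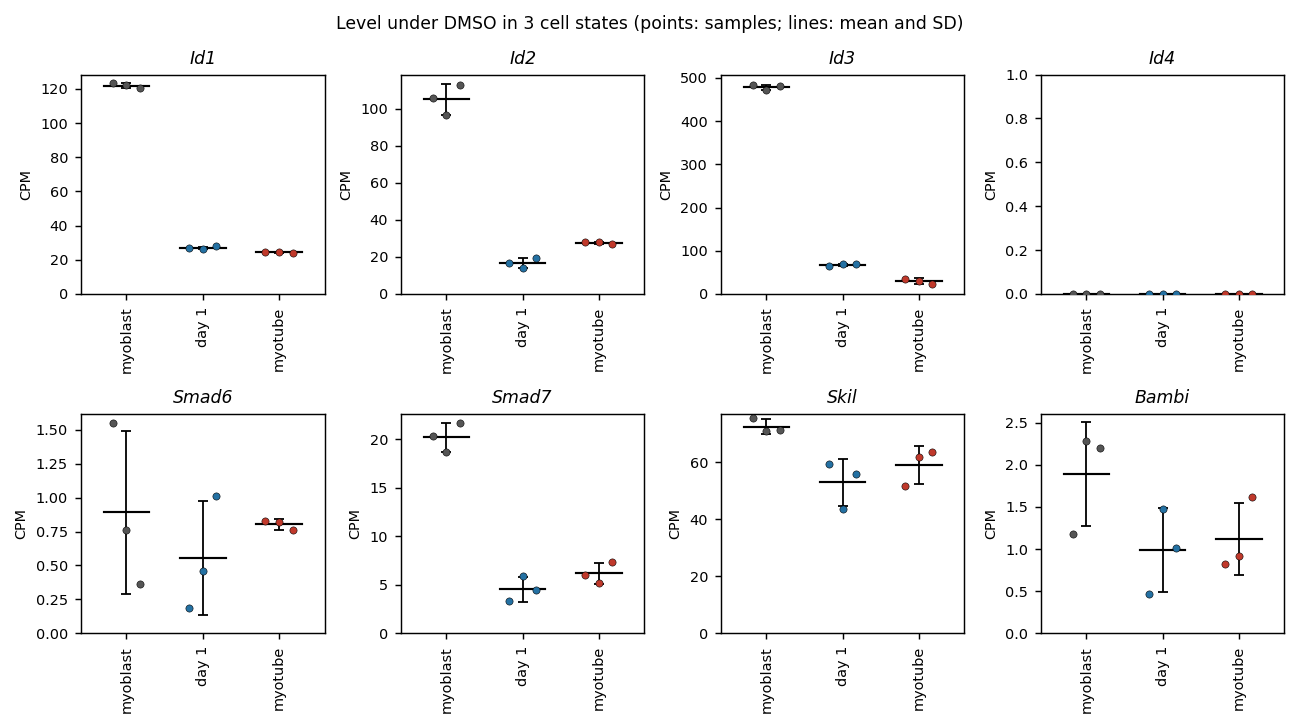
CPM of the 8 genes in control myoblasts, day 1 cells and untransduced myotubes under DMSO, 3 libraries each, with 1 panel per gene and its own linear axis from 0. Id1, Id2, Id3 and Smad7 drop from myoblasts to day 1, Id2 is higher in myotubes (27.05 to 28.1 CPM) than at day 1 (14.1 to 19.4), and Id4 is at 0 in all 9 libraries.

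In the pathway lists at day 1, where 63.6% of all genes were called in either direction, 6 of 8 ligands tested were higher and 1 lower, 7 of 14 receptors were higher and 0 lower, and 6 of 10 secreted antagonists were higher and 2 lower. Of 11 intracellular brakes 4 were higher and 2 lower, and of 6 signaling SMADs 1 and 2. Tgfb3 rose by 2.54, Tgfb2 by 1.81, Chrd by 3.83 and Fst by 3.43, while Inhba fell by 1.21 and Grem1 by 0.74. Of the ID partners and myogenic factors 8 of 10 were higher and 0 lower, among them Hes6 (2.61). Among other direct targets 5 of 15 were higher and 6 lower, with Runx1 at 1.46 and Ctgf at -1.37. Smad3 rose by 1.82. The median over all genes was -0.0015.

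At day 1 piericidin called 0 of 5 members by edgeR (0 by DESeq2, 1 at an unadjusted p under 0.05), where 2.75% of all genes were called. The intervals were -0.35 to 0.04 for Id1, -0.09 to 0.23 for Id3 and -0.43 to 0.62 for Smad7, and Id2 was at 14.3, 11.9 and 11.1 CPM against 16.7, 14.1 and 19.4 (-0.42, adjusted p = 0.174). Oligomycin raised Id1 and Smad7, 2 of 5 members, where 20.7% of all genes were called and 10.6% were higher. In these libraries the proliferation markers summed to 220.4 to 239 CPM, against 279 to 318 with DMSO, and their part in the values was not tested. Id1 went to 35.9, 35.4 and 39.9 CPM (0.48, SE 0.09, adjusted p = 0.00220) and Smad7 to 9.65, 9.19 and 12.03 CPM (1.2, SE 0.23, adjusted p = 0.00297), although Smad7 did not pass without replicate 3 (adjusted p = 0.053).

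In untransduced myotubes Id2 was the member lowered by all 3 respiratory inhibitors. It stood at 27.8, 28.1 and 27.05 CPM with DMSO, 13.3, 15.8 and 14.7 with piericidin, 15.7, 11.5 and 13.2 with antimycin and 22.2, 20.1 and 15.95 with oligomycin. No treated library reached the DMSO range. Id2 fell by 0.90 with piericidin, 1.03 with antimycin and 0.52 with oligomycin (SE 0.12, 0.11 and 0.11, adjusted p = 9.1e-06, 5.43e-07 and 0.000864).

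Id1 in myotubes was lowered by antimycin, to 15.1, 15.7 and 16.6 CPM (-0.62, SE 0.13, adjusted p = 0.00193, but 0.095 without replicate 1). With piericidin it was at 17.8, 17.9 and 20.0 (-0.38, adjusted p = 0.0847) and with oligomycin at 28.8, 29.2 and 33.9, all above DMSO (0.32, interval 0.06 to 0.58, adjusted p = 0.0570). Both values passed when only the groups compared were fitted (adjusted p = 0.0454 with piericidin and 0.0279 with oligomycin), and the oligomycin value also with outer position as a covariate (0.39, adjusted p = 0.0326). Id3, the most abundant member in myoblasts, did not pass the test with any of the 3, with log2 fold changes of 0.25, 0.04 and 0.03 and intervals that reach no lower than -0.25. Its DMSO libraries were spread from 22.3 to 35.8 CPM.

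Smad7 rose in myotubes with oligomycin alone of the 3. It went from 6.0, 5.21 and 7.31 CPM to 15.2, 13.4 and 11.9 (1.12, SE 0.18, adjusted p = 3.55e-05). With piericidin it was at 4.97, 4.58 and 7.15 and with antimycin at 4.87, 4.70 and 4.92 (-0.12 and -0.35, neither past the threshold). Skil did not pass the test with any of the 3 (0.04, -0.05 and -0.03, intervals within -0.28 and 0.27). In all, 1 of 5 members was called with piericidin, 2 with antimycin and 2 with oligomycin, where 8.99%, 12.9% and 33.3% of all genes were called (6.27% lower with antimycin).

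**Figure D4:**
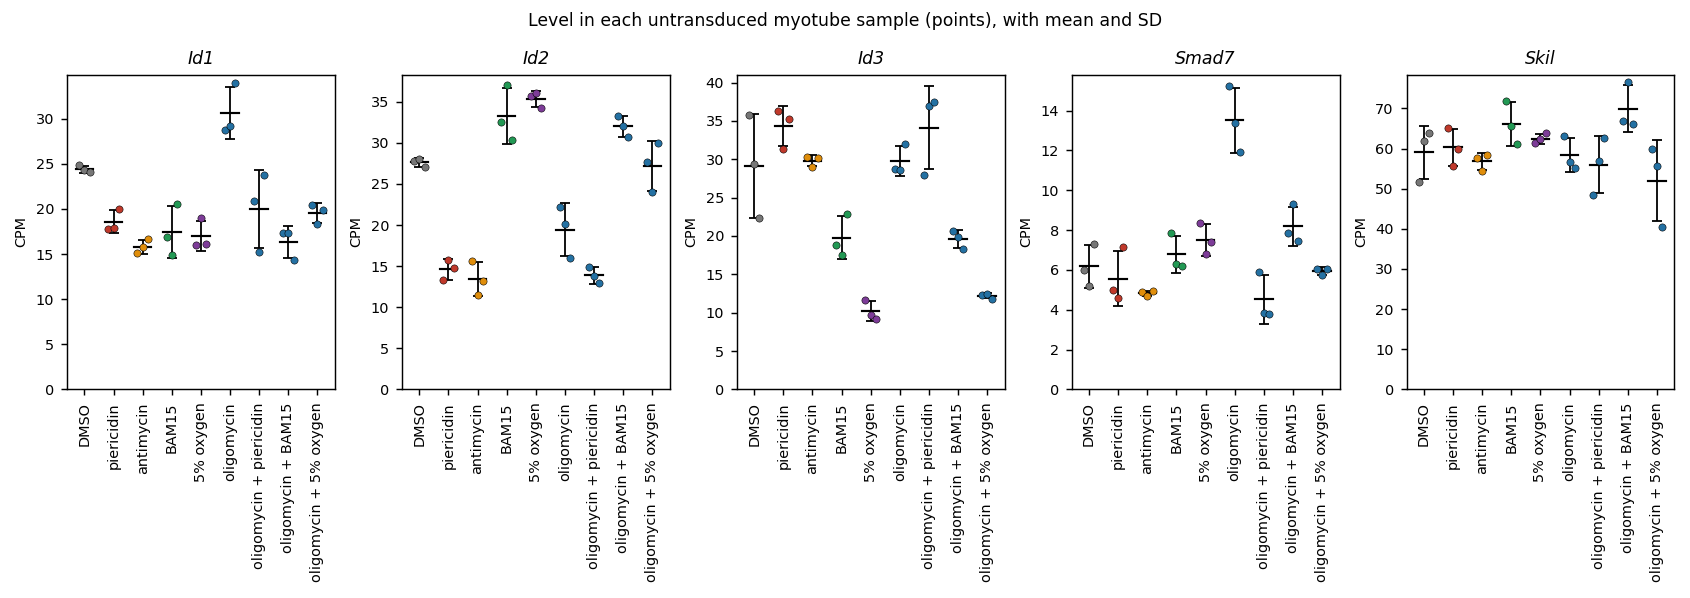
CPM of 5 genes in the 27 untransduced myotube libraries (9 conditions, 3 libraries each, points with a bar at the mean, linear axes from 0). Id2 is low with piericidin and antimycin, Id3 is low in both groups under 5% oxygen (9.20 to 12.4 CPM), and Smad7 is high only with oligomycin alone (11.9 to 15.2 CPM).

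Uncoupling and low oxygen gave yet other patterns. Under 5% oxygen Id3 fell from 35.8, 29.3 and 22.3 to 11.7, 9.72 and 9.20 CPM, 35% of the DMSO mean (-1.5, SE 0.14, adjusted p = 1.63e-08). Id1 was at 15.98, 19.0 and 16.1 (-0.50, adjusted p = 0.00706) and Id2 at 35.7, 36.0 and 34.2 (0.37, adjusted p = 0.0137), and 22.1% of all genes were called. The Id1 call was lost without replicate 1 (adjusted p = 0.131) and the Id2 call without any one replicate (adjusted p = 0.104, 0.103 and 0.0641 without replicates 1, 2 and 3). Beside this, 6 of 6 proliferation markers were lower under 5% oxygen (sum 53.7 to 68.2 CPM against 183 to 216), and the part of this in the Id3 value was not tested.

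With BAM15, Id1 (16.9, 14.9 and 20.6 CPM) and Id3 (18.9, 17.5 and 22.9) were lower than with DMSO (log2 fold changes -0.48 and -0.55, SE 0.13 and 0.14, adjusted p = 0.00937 and 0.00386), where 25.4% of all genes were called and 12.2% were lower. Both calls were lost without replicate 1 (adjusted p = 0.119 for Id1 and 0.0987 for Id3, the latter at -0.36) and without replicate 2 (adjusted p = 0.0919 and 0.138). Id2 was at 32.5, 37.04 and 30.4 (0.28, adjusted p = 0.0602). Id2 thus stood below DMSO with inhibitors of the chain and above it with BAM15 and 5% oxygen, although the BAM15 value did not pass. With BAM15 the proliferation markers summed to 161 to 180 CPM, against 183 to 216 with DMSO. The myotube markers summed to 16441 to 17495 CPM, against 14199 to 14846. The part of either list in the Id values was not tested.

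Adding a second agent to oligomycin asked whether its effect needed the chain, the proton gradient or oxygen. Smad7, at 15.2, 13.4 and 11.9 CPM with oligomycin alone, was at 5.91, 3.84 and 3.79 with added piericidin, 7.83, 9.28 and 7.45 with added BAM15 and 6.07, 5.74 and 6.03 under 5% oxygen. None of these 9 libraries reached the oligomycin range. The log2 differences from oligomycin alone were -1.56, -0.70 and -1.14 (SE 0.19, 0.18 and 0.19, adjusted p = 8.88e-07, 0.00485 and 2.95e-05), and the value with BAM15 did not pass without replicate 1 (adjusted p = 0.0928).

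Id1 was likewise lower than with oligomycin alone in all 3 combinations, at 20.9, 15.2 and 23.8 CPM with piericidin (-0.60), 17.3, 17.3 and 14.3 with BAM15 (-0.88) and 20.5, 18.3 and 19.9 under 5% oxygen (-0.61). Id2 fell further with piericidin (14.9, 13.8 and 12.9 CPM, -0.47) and rose with BAM15 (33.3, 32.1 and 30.7, 0.74) and under 5% oxygen (27.6, 24.0 and 30.03, 0.52). The Id2 call for piericidin was lost without replicate 1 or 2 (adjusted p = 0.0663 and 0.0668) and that for 5% oxygen without replicate 3 (0.31, adjusted p = 0.0946). Id3 fell with BAM15 (-0.58) and under 5% oxygen (-1.25). The proliferation markers summed to 191 to 208 CPM with oligomycin alone and 60.4 to 67.5 with oligomycin under 5% oxygen. With BAM15 added they summed to 160 to 178 CPM and with piericidin added to 192 to 199. Their part in the values was not tested. Skil did not pass with BAM15 added (0.28, adjusted p = 0.0571), but did by DESeq2 (adjusted p = 0.0446), with no filter (0.0226), with only the groups compared (0.0319) and without replicate 1 (0.0376). Counts of members called were 3, 4 and 4 of 5, where 20.9% (12.4% lower with piericidin added), 26.1% and 33.3% of all genes were called.

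In myotubes given oligomycin, where 33.3% of all genes were called in either direction, 4 of 8 ligands, 5 of 14 receptors and 7 of 13 other direct targets were lower and 0 higher. Of 9 secreted antagonists 5 were lower and 1 higher, of 11 intracellular brakes 5 and 2, of 10 ID partners and myogenic factors 4 and 2, and of 5 signaling SMADs 1 and 2. List medians ran from -0.46 (other direct targets) to 0.15 (signaling SMADs), against -0.0058 over all genes. Fst fell by 3.14, Hes1 by 2.80, Tob1 by 1.66, Tgfbr2 by 1.44, Klf10 by 1.09 and Smad3 by 1.03. Myf5 rose by 1.49 and Myog, the myogenic factor of early differentiation, by 1.29. Under 5% oxygen Ctgf rose by 1.24 and Grem1 by 0.98, with 3 of 13 other direct targets higher and 0 lower, a share close to the 22.1% of all genes called.

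Adenovirus-transduced myotubes were compared in their own fit. Oligomycin raised Smad7 in GFP myotubes, from 6.91 and 6.04 to 16.6 and 12.4 CPM (1.17, SE 0.24, adjusted p = 0.00207, but 0.145 without replicate 1), where 25.9% of all genes were called. In LbNOX myotubes Smad7 went from 5.57, 4.39 and 8.05 to 14.0, 14.2 and 15.9 (1.29, SE 0.20, adjusted p = 0.000135), where 32% were called. In untransduced, GFP and LbNOX myotubes and at day 1, the rise with oligomycin was between 1.12 and 1.29 on the log2 scale.

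LbNOX myotubes also had Id1 higher (0.50) and Id2 lower (-0.44) with oligomycin, the first of these lost without replicate 2 (adjusted p = 0.0664) or 3 (adjusted p = 0.0685). Piericidin lowered Id2 in GFP myotubes, from 27.4 and 22.5 to 16.9 and 16.3 CPM (-0.59, adjusted p = 0.0242, but 0.217 and 0.117 without replicates 1 and 2, and 0.0714 without replicate 3, which only the LbNOX arm has), and in LbNOX myotubes, from 30.5, 31.9 and 29.5 to 18.4, 17.9 and 19.0 (-0.76, adjusted p = 0.000477), where 3.09% and 6.78% of all genes were called. LbNOX against GFP under DMSO called 0 members, where 0.0242% of genes were called.

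The difference in response between LbNOX and GFP myotubes was called by edgeR for 0 members and 0 genes with either inhibitor (567 genes with piericidin and 525 with oligomycin at an unadjusted p under 0.05, 2 and 1 by DESeq2), so 0% were called. Its intervals were -0.53 to 0.19 for Id2 with piericidin and -0.54 to 0.78 for Smad7 with oligomycin. The GFP arm had 2 libraries in each condition.

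The difference in response between untransduced myotubes and control myoblasts was tested in a joint fit. With piericidin it was called for 4 of 6 members: 0.89 for Id1, 0.96 for Id2, 1.88 for Id3 and -0.99 for Smad7 (46.5% of all genes called). With antimycin it was called for 4, namely 0.43 for Id2, 1.06 for Id3, -1.72 for Smad7 and -0.88 for Skil (47.9% of all genes called), and the Id2 call was lost without any one replicate (adjusted p = 0.219, 0.0525 and 0.208) and with outer position as a covariate (0.25, adjusted p = 0.353). With that covariate Id1 was called as well (0.34, adjusted p = 0.0300, against 0.18, adjusted p = 0.172). With oligomycin it was called for 3: 1.07 for Id1, 1.27 for Id2 and 1.81 for Id3 (29% of all genes called, 15.8% with a higher response). For Smad7 with oligomycin it was 0.25 (interval -0.22 to 0.72), whereas the Id genes differed between states with this inhibitor.

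**Figure D5:**
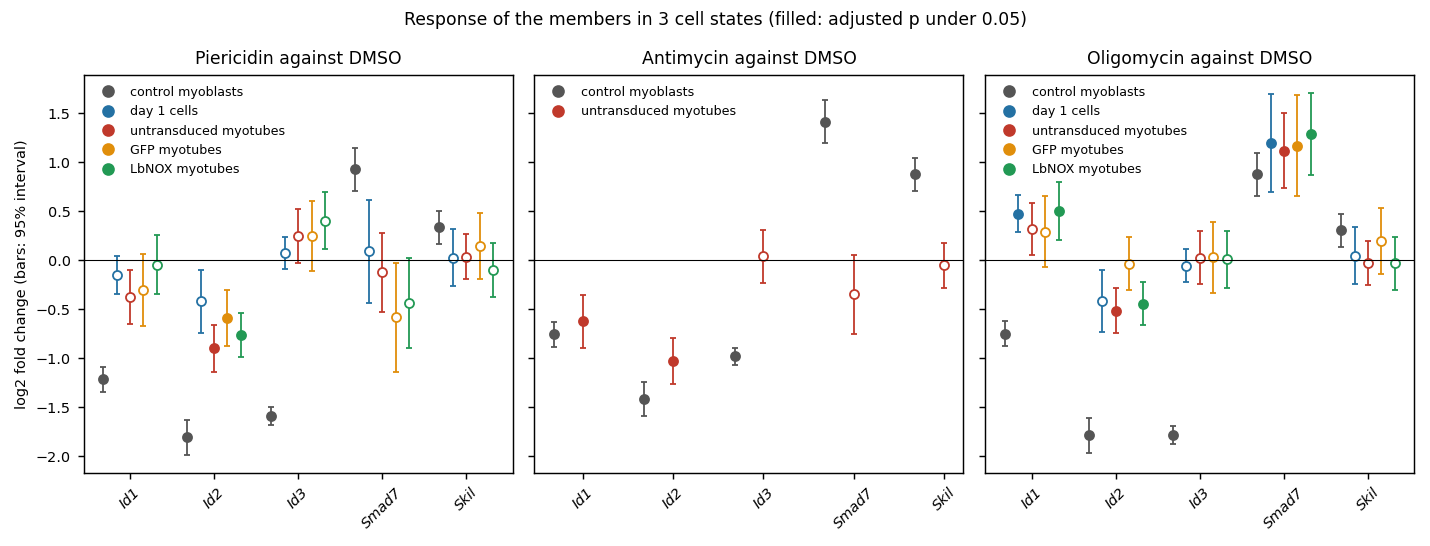
Log2 fold change against DMSO of the same cells for Id1, Id2, Id3, Smad7 and Skil in control myoblasts, day 1 cells and 3 sets of myotubes, with 95% intervals and filled points where the adjusted p was under 0.05. With oligomycin Smad7 lies between 0.88 and 1.29 in all 5 sets, while Id3 falls in myoblasts (-1.78) and lies near 0 in the others (-0.05 to 0.03).

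Levels of the members were also set beside each other and beside all genes across conditions, as a description. Over the 13 myoblast conditions of 10 hr, Pearson's r of mean log2 CPM was 0.979 for Id2 and Id3, 0.941 for Id1 and Id2, 0.934 for Id1 and Id3 and 0.929 for Smad7 and Skil, but -0.512 for Id1 and Smad7 and -0.657 for Id2 and Smad7. Over all 35 conditions, where cell state dominates, Id1 and Smad7 were at 0.849. The points share lines, controls and a broad common response, so no test is given.

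Of 9147 genes compared over the 13 conditions, those most like Id1 included Rnf150 (r of 0.983) and Cxcl12 (0.983). Those most like Id2 were Rnf150 (0.969), Cs (0.967) and Cdca3 (0.966), and those most like Id3 were Mapre2 (0.981), Fam19a5 (0.976) and Rtn3 (0.974). For Smad7 they were Cdk8 (0.965), Atf1 (0.948) and Edn1 (0.944), and for Skil Ankrd1 (0.940), Atp6v1h (0.935) and Fosl1 (0.934).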

How the data were processed

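Estimated counts were used as deposited: the authors pseudo-aligned Smart-seq2 reads (polyA, not strand-specific) with kallisto 0.44 and bias correction to Ensembl 93 (GRCm38.p6) plus the 4 transgenes, added up both flow cells and summed to genes with tximport. The submitters' processing notes also name bcl2fastq 2.20.0.422. The deposited values are whole numbers, 54150 rows by 96 libraries, and went into the tests unchanged. Pseudo-alignment shares reads among transcripts by likelihood, and values of genes with few counts are the least certain.

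Tests were run in R 4.3.3 with edgeR 4.0.16 (TMM, quasi-likelihood F test, 1 coefficient per condition) in 6 fits with 47 comparisons, after the filter of the study's methods, which keeps a gene once some condition of the fit has 16 or more counts in each of its replicates. P-values were adjusted by Benjamini-Hochberg over all genes tested in a comparison, with a threshold of 0.05. Standard errors were derived from the F statistic as the size of the log2 fold change over its square root, and intervals are at 95%. Levels are CPM with TMM factors over all 96 libraries, so ratios of CPM means differ slightly from fitted fold changes. A count of 0 allows up to 3 counts in a library, by counting error alone.

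Groups and replicate numbers came from the labels. Gene lists, members and comparisons were chosen with earlier results of these data known. Named genes were the members in every comparison and, per pathway list and direction, up to 3 called genes with the largest change, a mean of at least 50 counts and no overlap between replicates, plus the 3 genes most like a member. Some genes that this rule names are not reported here. The pipeline was tested on simulated data: with piericidin in control myoblasts, 44 of 61 genes changed by 1 log2 unit and 66 of 71 changed by 2 were recovered, with 10 false calls among 11980 genes. Smaller changes were recovered less often: of genes changed by 0.5, 44 of 68 with piericidin in control myoblasts, 17 of 60 for the difference in response to piericidin between LbNOX and control myoblasts and 7 of 58 with chloramphenicol in control myoblasts. Alternatives were DESeq2 1.42.0 (its Wald test, and its size factors in edgeR), no filter, only the groups compared, plate position, a replicate block and leaving out each replicate. Promoters came from RefSeq (GRCm38.p6) and gene positions from GENCODE M21 (GRCm38). Promoter sequences of Id1, Smad7, Skil and Bambi were not used here.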

Additional observations from a re-analysis of the deposited data

Results flagged for a closer look

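For the results below, the test of the difference between 2 groups' responses to the same inhibitor passed the threshold. Values are log2 differences of response from the edgeR quasi-likelihood test and were not tested for cause. Single samples were not screened, since that needs groups of at least 4 libraries and each group had 2 or 3.

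With piericidin, the response of LbNOX myoblasts minus that of control myoblasts was 1.13 for Id1, 1.34 for Id2, 1.23 for Id3, 2.51 for Smad6 and -0.90 for Smad7. For mitoLbNOX myoblasts it was 0.89 for Id1, 1.12 for Id2, 1.07 for Id3, -0.83 for Smad7 and -0.29 for Skil, and for NDI1 myoblasts 1.25 for Id1, 1.70 for Id2, 1.45 for Id3, -0.84 for Smad7 and 1.78 for Bambi. The Id genes had positive and Smad7 negative differences in each of the 3 lines, which share the control myoblasts. The Smad6 call with LbNOX and the Skil call with mitoLbNOX were lost without any one replicate, and Smad6 had at most 25 counts in a library. Without replicate 2 the Bambi value with NDI1 was 0.80.

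With antimycin, the difference was -0.38 for Id3, -1.86 for Smad7 and -1.10 for Skil in LbNOX myoblasts, and 0.35 for Id2, -0.99 for Smad7 and -0.51 for Skil in mitoLbNOX myoblasts. With oligomycin it was 0.82 for Id2, 0.76 for Id3 and -0.86 for Smad7 in LbNOX myoblasts. In mitoLbNOX myoblasts with antimycin the Skil call was lost without replicate 2 and the Id2 call without replicate 3.

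Between cell states, the response of untransduced myotubes minus that of control myoblasts was 0.89 for Id1, 0.96 for Id2, 1.88 for Id3 and -0.99 for Smad7 with piericidin. With antimycin it was 0.43 for Id2, 1.06 for Id3, -1.72 for Smad7 and -0.88 for Skil, and with oligomycin 1.07 for Id1, 1.27 for Id2 and 1.81 for Id3. The Id2 call with antimycin was lost without any one replicate. A gene at a lower level in myotubes has fewer counts behind its fold change, as for Id3 at 6.08% of its myoblast level, and the part of this in the differences was not tested.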

How the results depend on the processing

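Of 286 member tests, 126 were called, and 97 of these calls held under each alternative run. No alternative reversed the direction of a test that was called in the main fit or in that alternative. Changes of sign in tests called in neither are not counted here. DESeq2's Wald test kept the side of the threshold for 268 of 271 tests, its size factors for 285 of 286, no filter for 276 of 286, a fit of only the groups compared for 252 of 260 and plate position for 269 of 276. The covariate for plate position was not run for day 1 cells, all of which were at outer positions. Counts of calls per family of comparisons were within 1.5 times of those reported, except on leaving out replicates: inhibitors at day 1 gave 2 calls and 1 to 2, single agents in myotubes 10 and 5 to 9, and transgenes under DMSO 1 and 0 to 1, with fewer samples in each such fit. Leaving out a replicate undid 28 of the 126 calls at least once, and another setting undid 12. Where that leaves 1 library in an arm (NDI1 myoblasts, GFP myotubes and the 48 hr conditions), it is assumed to vary like the other groups. Without the filter the calls were lost for Bambi in NDI1 by piericidin (adjusted p = 0.0739) and antimycin in mitoLbNOX (0.247) and at day 1 (0.315), for Smad6 in LbNOX by piericidin (0.0855), for Id2 under 5% oxygen (0.0604), in mitoLbNOX by antimycin (0.0978) and in myotubes by antimycin (0.0738), and for Skil in mitoLbNOX by piericidin (0.105). Fitting only the groups compared lost Id2 with piericidin in GFP myotubes (adjusted p = 0.277) and with piericidin added to oligomycin (0.0507), Bambi with antimycin in mitoLbNOX (0.0811) and Skil in mitoLbNOX by piericidin (0.105). Calls were gained for Skil without replicate 1 in myotubes against day 1 (0.35, adjusted p = 0.0476, against 0.20) and in the response to piericidin of myotubes against myoblasts (-0.46, adjusted p = 0.0491, against -0.25), and for Id3 with piericidin in LbNOX myotubes without the filter (adjusted p = 0.0196). Outer position lost Skil for myotubes against myoblasts (adjusted p = 0.0802). The numbers are not read as pairs, because the labels name no shared source and same-numbered samples did not correlate above 0.1 in every pair (71 of 211 pairs did in the myoblast fit). The mean correlation of same-numbered samples was -0.041 to 0.054 over 5 fits (0.034 for myoblasts, against -0.017 for other pairs), and 21 of 37 myoblast libraries were closest to their own number, a hint from the data of some pairing there. The replicate block kept 284 of 286 tests, losing Skil for mitoLbNOX by piericidin (adjusted p = 0.052) and gaining Smad7 for myotubes against day 1 (adjusted p = 0.048). Smad6, Bambi and Id4 had the fewest counts of the members, and Id4 could not be tested.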
